A study of Mus musculus with 12 samples.

Results

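The limb mesenchyme patterning transcription factors examined here are 9 genes, Prrx1, Prrx2, Hand2, Alx4, Lmx1b, Shox2, Meis1, Meis2 and Msx1, taken as a list of names with earlier results of these data known. All 9 were found once each among the 51826 genes of the forelimb count table. Their RNA was sequenced from forelimbs of mouse embryos at day E12.5. The WT group (genotype Wt) and the Prx-cKO group (genotype Impdh2 Prx-cKO) held 2 libraries each. In Prx-cKO embryos Impdh2, which encodes an enzyme of guanine nucleotide synthesis, was deleted in limb mesenchymal progenitors. The labels name the driver Prx, and Prx1 is an older name of Prrx1, 1 of the 9 genes. The labels do not give the floxed allele, the Cre carried by the WT embryos, the strain, the sex, or whether embryos were pooled. The remaining 8 of the 12 libraries came from bone marrow cells cultured for osteoclast differentiation and enter no comparison here. Their titles give the genotypes Impdh2 LysM-cKO and Impdh2 Wt and the culture conditions R40D3 and R0D3, with 2 libraries for each combination. For all 8 the labels state M-CSF at 20 ng per ml and RANKL at 40 ng per ml, also for those titled R0D3.

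The early limb bud is a mass of mesenchyme covered by ectoderm, in which signals from its edges set the position of each cell along 3 axes. Position is held by transcription factors that are active in parts of the mesenchyme. Prrx1 and Prrx2 are paired-related homeobox factors of limb mesenchyme at large. Hand2, a basic helix-loop-helix factor, marks the posterior side and acts upstream of Shh, while the aristaless-like homeobox factor Alx4 acts on the anterior side and restrains Shh. Lmx1b, a LIM homeodomain factor induced by Wnt7a from the dorsal ectoderm, gives dorsal identity. Meis1 and Meis2, TALE homeodomain factors, mark the proximal limb, and the homeobox factor Shox2 is needed for growth of the upper limb segment. Msx1 is a homeobox factor of distal mesenchyme that responds to BMP signalling.

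The start-site windows of the 3 genes with the lowest Prx-cKO levels relative to WT (Lmx1b, Prrx1 and Hand2) and of the gene with the highest (Meis1) are shown to set the genes that differed most in opposite directions side by side. Sequences are from RefSeq on GRCm38.p6, which listed a window for 8 of the 9 genes, all but Alx4. Each window runs from 250 bases before the start site to 50 bases after it, 5′ to 3′ on the gene's own strand. Capitals mark TAATTA, a core to which many homeodomain proteins can bind, and CCAAT, a common promoter element, searched on both strands; they do not overlap in these windows.
Lmx1b: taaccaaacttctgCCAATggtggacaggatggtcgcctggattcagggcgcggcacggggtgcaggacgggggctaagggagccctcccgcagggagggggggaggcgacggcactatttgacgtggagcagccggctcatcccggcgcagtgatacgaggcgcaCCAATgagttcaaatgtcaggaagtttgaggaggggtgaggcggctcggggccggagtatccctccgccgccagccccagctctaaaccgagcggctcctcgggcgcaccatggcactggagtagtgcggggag
Prrx1: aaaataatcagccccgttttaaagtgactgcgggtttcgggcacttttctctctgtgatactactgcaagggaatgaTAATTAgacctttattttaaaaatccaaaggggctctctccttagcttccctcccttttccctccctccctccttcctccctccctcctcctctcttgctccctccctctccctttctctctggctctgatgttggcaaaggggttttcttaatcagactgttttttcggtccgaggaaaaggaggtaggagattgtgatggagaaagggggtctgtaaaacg
Hand2: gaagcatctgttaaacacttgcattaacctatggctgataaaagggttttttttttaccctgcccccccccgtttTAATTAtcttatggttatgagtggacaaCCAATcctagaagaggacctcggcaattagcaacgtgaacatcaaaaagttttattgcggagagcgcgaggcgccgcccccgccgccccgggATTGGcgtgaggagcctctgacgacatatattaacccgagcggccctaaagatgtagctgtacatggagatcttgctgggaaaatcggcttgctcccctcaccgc
Meis1: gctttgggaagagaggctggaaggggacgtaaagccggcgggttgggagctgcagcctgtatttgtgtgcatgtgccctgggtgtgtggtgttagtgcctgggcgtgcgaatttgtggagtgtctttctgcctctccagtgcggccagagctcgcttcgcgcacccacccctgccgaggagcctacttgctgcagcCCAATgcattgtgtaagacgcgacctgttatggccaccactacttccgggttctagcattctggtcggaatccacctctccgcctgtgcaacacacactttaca
The windows lie at chr2:33641049-33641348 (minus strand) for Lmx1b, chr1:163313601-163313900 (minus strand) for Prrx1, chr8:57320733-57321032 (plus strand) for Hand2 and chr11:19018920-19019219 (minus strand) for Meis1. TAATTA was in 2 of the 8 windows, those of Prrx1 and Hand2, and in 5.29% of 32851 mouse windows of the same length. It began 173 bases before the start site in Prrx1 and 175 bases before it in Hand2. CCAAT was in 5 of the 8 windows, against 37.4% of all windows. The G and C content was 65.7% for Lmx1b, 47.7% for Prrx1, 50.3% for Hand2 and 58.3% for Meis1, with a median of 52.7% over all windows. The Lmx1b window lies wholly upstream of the bounds given below for that gene, which are from GENCODE. RefSeq and GENCODE thus place its start site differently. A match is a description of these letters only.

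The forelimb libraries held 28892215 to 69466572 counts, and each of the 9 genes had at least 1175 counts in every library. Levels are given as CPM, the counts per 1000000 counts of the scaled library, with replicate 1 before replicate 2 in each genotype. Impdh2 read 260 and 272 CPM in WT against 170 and 199 CPM in Prx-cKO. Tbx5, which marks the forelimb, had WT levels of 160 and 199 CPM against 97.0 and 91.2 CPM in Prx-cKO, whereas the hindlimb factors Tbx4, Pitx1 and Isl1 together summed to between 18.8 and 22.9 CPM. The labelled tissue was therefore matched by its markers in level, with Tbx5 above that sum in every library. Within the sum, Tbx4 was lower and Pitx1 and Isl1 were higher in both Prx-cKO libraries than in both WT libraries. Each genotype held 1 library with at least 92566 Xist counts and no Ddx3y count (WT replicate 1 and Prx-cKO replicate 2) and 1 with at most 114 Xist counts (WT replicate 2 and Prx-cKO replicate 1), so libraries of like type carry different replicate numbers. The replicates of a genotype therefore held RNA from different embryos. The labels do not say whether a library is 1 embryo or a pool, or whether embryos shared a litter, so p-values measure only the spread between these libraries.

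The 9 genes did not share a direction between the genotypes. Lmx1b, Prrx1 and Hand2 were lower in both Prx-cKO libraries, at 49.3%, 55.8% and 67.4% of the WT mean. Meis1 and Meis2 were higher in both, at 156% and 130% of it. Shox2 was slightly lower in both, and Prrx2, Msx1 and Alx4 overlapped between the genotypes. No gene of the 19987 tested passed an adjusted p of 0.05 (0%, edgeR quasi-likelihood test, Benjamini-Hochberg over all genes tested), and so 0 of the 9 did. The smallest adjusted p among the 9 was 0.332.

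Before adjustment, 4 of the 9 had a p under 0.05, against 10.5% of all genes tested, of which 3 were lower (4.61% of all genes) and 1 was higher (5.87%). Both Prx-cKO libraries lay below both WT libraries for 4 of the 9, against 21% of all genes tested, and above them for 2, against 22.2%. The count of 2 above WT is near that background. The median log2 fold change of the 9 was −0.14, and that of all genes tested was −0.03. The median of the 9 was 0.03 without Prx-cKO replicate 1, where that of all genes tested was −0.053. DESeq2, run on the same genes, called 390 (1.95%), among them Prrx1 (adjusted p 0.0392) and Lmx1b (adjusted p 0.00094). Without WT replicate 1 the edgeR log2 fold changes of Prrx1, Lmx1b and Meis1 were −1.06, −1.20 and 0.93. Without WT replicate 2 they were −0.63, −0.86 and 0.38.

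**Figure D1:**
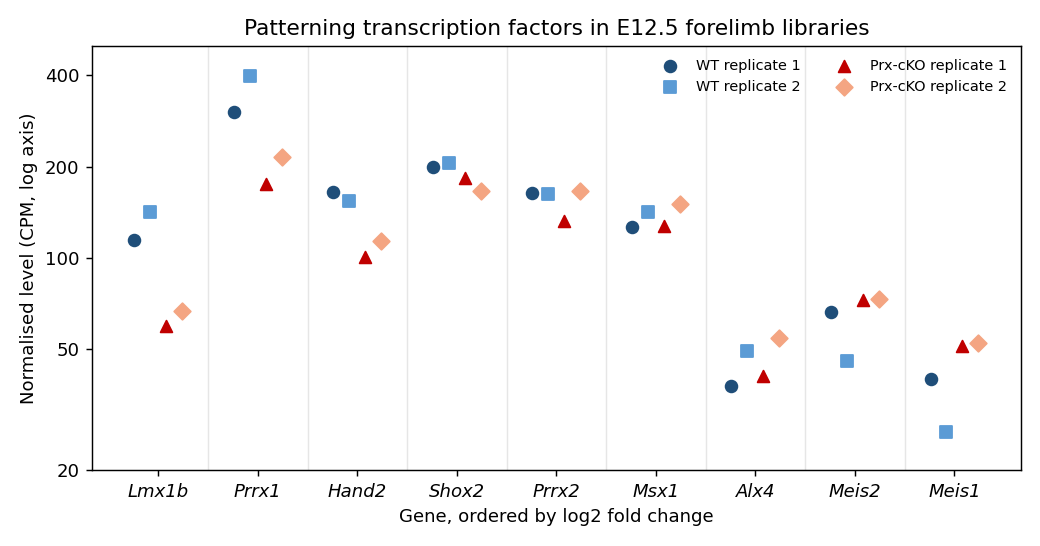
Normalised level (CPM, log axis) of each of the 9 genes in the 4 forelimb libraries, 1 point per library, with genes ordered from the lowest to the highest log2 fold change. The Prx-cKO points lie below the WT points for Lmx1b, Prrx1, Hand2 and Shox2 and above them for Meis2 and Meis1.

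Lmx1b, the dorsal factor, had the lowest log2 fold change of the 9. Lmx1b had WT levels of 115 and 142 CPM against 59.7 and 66.9 CPM in Prx-cKO. All WT values were well above all Prx-cKO values, and the gap between the nearest libraries, 0.78 on the log2 scale, was larger than the gap between replicates of either genotype (0.30 in WT and 0.16 in Prx-cKO). The mean level was 128 ± 18.8 CPM in WT and 63.3 ± 5.08 CPM in Prx-cKO (SD, n = 2), and the fitted log2 fold change was −1.02 (SE 0.17, 95% interval −1.46 to −0.58, edgeR adjusted p 0.332). This interval and those below are for single genes and are not adjusted for the number of genes tested. Of the genes tested, 4.96% had a lower log2 fold change. Between libraries of like Xist count the difference was −0.78 in the Xist-high pair and −1.25 in the Xist-low pair. The gene (ENSMUSG00000038765) is protein-coding and lies on chromosome 2 (minus strand, bases 33560965 to 33640511) of GRCm38, the build of all gene positions given here.

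Prrx1 and Prrx2, the paired-related factors of limb mesenchyme at large, differed in their values. Prrx1 had WT levels of 304 and 397 CPM against 175 and 216 CPM in Prx-cKO. The replicates of each genotype were 0.39 and 0.30 apart on the log2 scale, and the groups were separated by 0.49. The mean Prrx1 level was 350 ± 65.9 CPM in WT and 195 ± 28.6 CPM in Prx-cKO (SD, n = 2), and the fitted log2 fold change was −0.84 (SE 0.20, 95% interval −1.36 to −0.32, edgeR adjusted p 0.414). Prrx2 had WT levels of 164 and 163 CPM against 132 and 166 CPM in Prx-cKO. Here the second Prx-cKO library was as high as WT and only the first was lower, and the log2 fold change was −0.14 (SE 0.17, 95% interval −0.56 to 0.29), or 0.03 without Prx-cKO replicate 1. Within each library the log2 ratio of Prrx1 to Prrx2 counts per kilobase of exon was −1.61 and −1.21 in WT and −2.09 and −2.12 in Prx-cKO. That ratio was lower in both Prx-cKO libraries, by a mean of 0.69, and this difference in the ratio was not tested. Prrx1 (ENSMUSG00000026586) lies on chromosome 1 (minus strand, bases 163245119 to 163313710), and Prrx2 (ENSMUSG00000039476) on chromosome 2 (plus strand, bases 30834972 to 30881251).

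The genes of the front-to-back axis were Hand2 on the posterior and Alx4 on the anterior side. Hand2 had WT levels of 165 and 154 CPM against 101 and 114 CPM in Prx-cKO. The genotypes did not overlap, with replicates 0.10 and 0.16 apart and the groups 0.44 apart on the log2 scale. The mean Hand2 level was 160 ± 7.68 CPM in WT and 108 ± 8.57 CPM in Prx-cKO (SD, n = 2), and the fitted log2 fold change was −0.57 (SE 0.15, 95% interval −0.94 to −0.19, edgeR adjusted p 0.422). Its difference was nearly the same in the Xist-high pair (−0.54) and the Xist-low pair (−0.60). Hand2 (ENSMUSG00000038193) lies on chromosome 8 (plus strand, bases 57320983 to 57324633), and 19.6% of its exonic bases overlap an exon of the opposite-strand transcript Hand2os1. Hand2os1 had WT levels of 45.1 and 29.5 CPM against 17.6 and 17.5 CPM in Prx-cKO. Whether strand was used in counting is not given in the sources used here, so reads from the overlap cannot be told apart.

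Alx4 had WT levels of 38.0 and 49.5 CPM against 40.9 and 54.4 CPM in Prx-cKO. The replicates of each genotype differed more from each other than the genotypes did, with replicate 2 the higher library in each genotype. The log2 fold change was 0.12 (SE 0.23, 95% interval −0.45 to 0.70), and its sign turned to −0.09 without WT replicate 1 and to −0.10 without Prx-cKO replicate 2. Between libraries of like Xist count it was 0.52 in one pair and −0.28 in the other. Alx4 (ENSMUSG00000040310) lies on chromosome 2 (plus strand, bases 93642384 to 93681339).

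The proximal factors Meis1 and Meis2 were the only 2 of the 9 genes with both Prx-cKO libraries above both WT libraries. Of all genes tested 22.2% lay so, and a count of 2 in 9 is near that background. Meis1 had WT levels of 40.0 and 26.7 CPM against 51.4 and 52.5 CPM in Prx-cKO. The Prx-cKO replicates lay 0.03 apart on the log2 scale and the WT replicates 0.59 apart, with WT replicate 2 the lowest library. The mean Meis1 level was 33.3 ± 9.47 CPM in WT and 52.0 ± 0.824 CPM in Prx-cKO (SD, n = 2), and the fitted log2 fold change was 0.64 (SE 0.24, 95% interval 0.04 to 1.24, edgeR adjusted p 0.470). Leaving out WT replicate 2 gave 0.38, and leaving out WT replicate 1 gave 0.93. Meis2 had the same order of libraries, with WT levels of 66.2 and 45.7 CPM against 72.5 and 73.4 CPM in Prx-cKO. WT replicate 2 was again the low library, and the gap between the nearest libraries of the 2 genotypes was only 0.13 on the log2 scale. The Meis2 log2 fold change was 0.38 (SE 0.22, 95% interval −0.17 to 0.94), which became 0.15 when WT replicate 2 was left out and 0.64 when WT replicate 1 was.

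The log2 ratio of Meis1 to Meis2 per kilobase was −0.53 and −0.58 in WT and −0.30 and −0.29 in Prx-cKO. Meis1 was thus the scarcer of both in all 4 libraries, and the ratio was higher in Prx-cKO by a mean of 0.26, again without a test. Meis1 (ENSMUSG00000020160) lies on chromosome 11 (minus strand, bases 18879817 to 19018985), and 18.3% of its exonic bases overlap exons of other annotated transcripts. Those transcripts, Gm37818 on the same strand and Gm16140 on the opposite one, were at no more than 5.66 CPM in any library. How reads from the shared bases were counted is not given in the sources used here, so such reads cannot be told apart. Meis2 (ENSMUSG00000027210) lies on chromosome 2 (minus strand, bases 115863064 to 116065839).

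Shox2 and Msx1 stayed within narrow ranges. Shox2, the factor needed for growth of the upper limb segment, had WT levels of 199 and 205 CPM against 183 and 166 CPM in Prx-cKO. Both Prx-cKO libraries were lower, but by only 0.12 on the log2 scale between the nearest libraries, and the log2 fold change was −0.21 (SE 0.14, 95% interval −0.58 to 0.15). Msx1 had WT levels of 127 and 142 CPM against 128 and 151 CPM in Prx-cKO. Its genotypes overlapped, and the log2 fold change was 0.05 (SE 0.16, 95% interval −0.36 to 0.47), which turned to −0.05 when libraries were scaled by library size alone, to −0.06 without WT replicate 1 and to −0.07 without Prx-cKO replicate 2. Shox2 (ENSMUSG00000027833) lies on chromosome 3 (minus strand, bases 66971727 to 66981771), and 4.62% of its exonic bases overlap Rsrc1 on the other strand. Msx1 (ENSMUSG00000048450) lies on chromosome 5 (minus strand, bases 37820485 to 37824583).

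**Figure D2:**
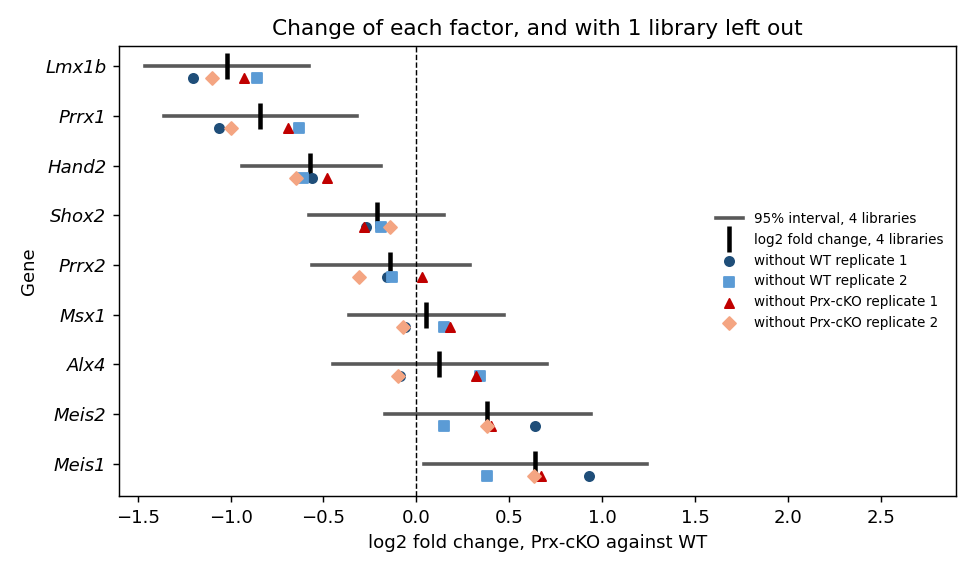
log2 fold change of Prx-cKO against WT for each of the 9 genes (black tick, 4 libraries) with its 95% interval (grey line) and the value with each library left out (coloured points). The intervals are not adjusted for the number of genes tested. Lmx1b, Prrx1, Hand2 and Shox2 stay below 0 and Meis1 and Meis2 above 0 whichever library is left out, whereas points of Prrx2, Msx1 and Alx4 lie on both sides of 0.

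Levels were set side by side per kilobase of exon, as CPM per kilobase (RPKM), because longer transcripts collect more reads. In WT, Prrx2 had the highest level at 83.4 ± 0.560 RPKM (SD, n = 2). Hand2 (67.9 ± 3.26), Shox2 (61.1 ± 1.21), Msx1 (43.5 ± 3.52) and Prrx1 (31.6 ± 5.96 RPKM) followed, none of these neighbours overlapping between libraries. Lmx1b at 26.3 ± 3.85 RPKM overlapped Prrx1. The lowest were Alx4 (6.20 ± 1.16), Meis2 (4.65 ± 1.21) and Meis1 (3.17 ± 0.899 RPKM), each overlapping its neighbour in this order. In Prx-cKO the order differed only in that Shox2 (52.7 ± 3.69 RPKM) stood above Hand2 (45.7 ± 3.64 RPKM), which overlapped Msx1 (45.1 ± 5.33 RPKM). The exonic length of a gene depends on the transcripts annotated. With the longest coding transcript alone, Msx1 (69.5 RPKM) stood second in WT, above Hand2 (67.9 RPKM) and Shox2 (65.7 RPKM). Meis2 (15 RPKM) then stood above Alx4 (6.20 RPKM) in WT, and Prrx2, Prrx1, Lmx1b and Meis1 kept their places there. In Prx-cKO with that length, Meis2 (19.6 RPKM) stood above Lmx1b (13.2 RPKM), and Meis1 (6.88 RPKM) above Alx4 (6.75 RPKM).

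The genes with the libraries most alike to those of Lmx1b and Meis1 were looked up, as the smallest Euclidean distance between centred log2 CPM values over the 4 forelimb libraries among 11333 genes. For Lmx1b they were Itga8, an integrin alpha subunit (distance 0.052), the RNA-binding protein gene Tia1 (0.093) and Unc5c, a netrin receptor (0.11). Itga8 had WT levels of 21.2 and 24.8 CPM against 10.6 and 12 CPM in Prx-cKO. For Meis1 they were Lsp1 (0.046), Mocs3 (0.073) and Thyn1 (0.086), and Lsp1 had WT levels of 36.5 and 24.1 CPM against 48.4 and 47.9 CPM in Prx-cKO. With 4 libraries, likeness of this kind describes the libraries only.

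Related genes were drawn from 4 lists, with 53 genes of which 52 passed the filter on low counts. None passed the adjusted threshold (0 of 52); 4 were higher and 8 lower at an unadjusted p under 0.05, against 5.87% higher and 4.61% lower of all genes tested, and their median log2 fold change was −0.08. Among 7 paralogues of the 9 genes, 6 were tested, with 1 lower (4.61% of all genes tested) and 0 higher (5.87%) at that level and a median of 0.26. The lower one was Hand1, a paralogue of Hand2, with WT levels of 2.01 and 2.44 CPM against 0.939 and 0.352 CPM in Prx-cKO. Among 13 protein partners (Pbx and Pknox factors that pair with Meis, E proteins that pair with Hand2, and LIM cofactors), 1 was lower and 0 were higher, against the same 4.61% and 5.87% of all genes, with a median of −0.08. A count of 1 in 13 is near that background. That gene was Ldb2, which encodes a cofactor of LIM homeodomain proteins such as Lmx1b, with WT levels of 28.4 and 32.2 CPM against 18.5 and 18.4 CPM in Prx-cKO.

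Of 19 other limb transcription factors, 3 were lower (4.61% of all genes tested) and 2 higher (5.87%) at an unadjusted p under 0.05, with a median of −0.09. Lhx9, a LIM homeodomain factor of distal limb mesenchyme, had WT levels of 163 and 183 CPM against 81.0 and 72.5 CPM in Prx-cKO (log2 fold change −1.17, SE 0.16, edgeR adjusted p 0.320). Osr2 had a log2 fold change of −0.83 (SE 0.18) and Dlx6, a distal-less factor, of −1.06 (SE 0.35). Etv4, an ETS factor that responds to FGF signalling, was higher, with WT levels of 53.8 and 42.5 CPM against 93.0 and 94.3 CPM in Prx-cKO. In this list 6 of 19 genes lay below WT without overlap, against 21% of all genes tested, and 5 lay above it, against 22.2%, so the count above WT is near the background.

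Of 14 genes of the signals that place these factors, 3 were lower (4.61% of all genes tested) and 2 higher (5.87%) at an unadjusted p under 0.05. Their median was −0.12, which was 0.12 without Prx-cKO replicate 1. Shh, the posterior signal downstream of Hand2, had WT levels of 1.94 and 0.780 CPM against 3.30 and 6.71 CPM in Prx-cKO. Its log2 fold change was 1.98 (SE 0.60, edgeR adjusted p 0.444), on 56 to 343 counts in a library. Ptch1 and Gli1, also in this list, had log2 fold changes of −0.08 (SE 0.25) and 0.25 (SE 0.15). Fgf8, the signal of the apical ectodermal ridge, had WT levels of 14.1 and 13.1 CPM against 23.8 and 26.6 CPM in Prx-cKO. Cyp26b1, the enzyme that clears retinoic acid from the distal limb, had WT levels of 176 and 197 CPM against 98.6 and 134 CPM in Prx-cKO. Wnt5a, a signal of distal mesenchyme, was lower as well (log2 fold change −0.86, SE 0.18, edgeR adjusted p 0.382).

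**Figure D3:**
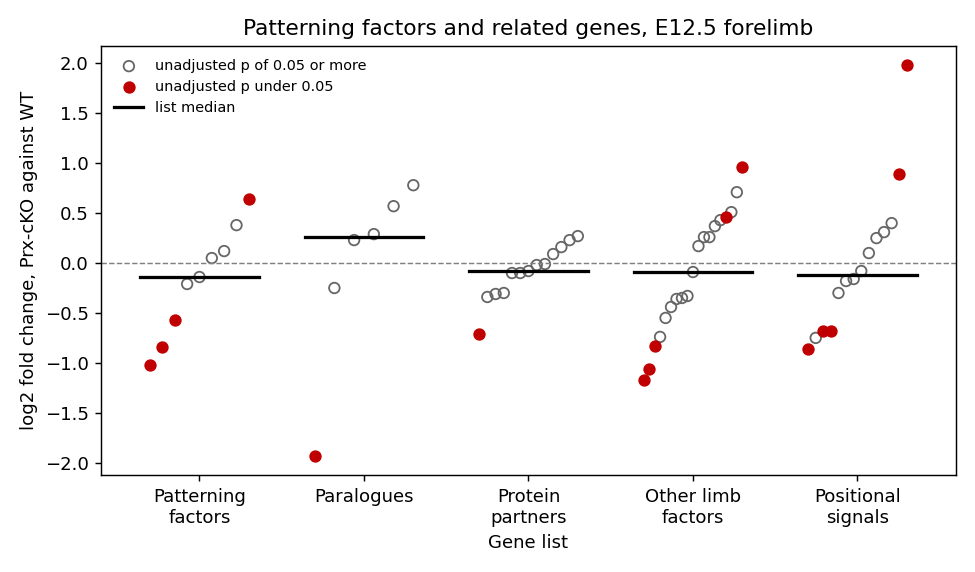
log2 fold change of Prx-cKO against WT for the 9 patterning factors and 4 lists of related genes, 1 point per gene tested; filled points have an unadjusted p under 0.05 and bars are list medians. Filled points lie on both sides of 0 in the patterning factors, the other limb factors and the positional signals, and no list median is farther from 0 than 0.26.

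A forelimb holds several cell types, and in bulk RNA fewer cells of a type and less RNA per cell cannot be told apart. The 9 genes summed to 1220 and 1330 CPM in the WT libraries against 944 and 1060 CPM in Prx-cKO. Prrx1 weighed most in the WT sum, with a mean of 350 CPM in WT against 195 CPM in Prx-cKO. Of the 9 genes, 4 had a log2 fold change above 0, so the sum does not describe each gene. Over 6 broad mesenchyme markers the sum was 2080 to 2090 CPM in WT and 1860 to 1900 CPM in Prx-cKO. Their median log2 fold change was −0.12, with Pdgfra, a growth factor receptor of mesenchyme, at −0.80 and Col3a1 and Vim at 0.07 and 0.10. Pdgfra had WT levels of 406 and 466 CPM against 248 and 252 CPM in Prx-cKO, which makes up most of the difference in the sum. All 7 cartilage markers lay below WT in both Prx-cKO libraries (21% of all genes tested did), with a sum of 849 to 960 CPM in WT and 300 to 365 CPM in Prx-cKO. Of 7 skeletal muscle markers, 4 (Myod1, Myog, Myf5 and Actc1) lay above WT in both Prx-cKO libraries, against 22.2% of all genes tested. The other 3, Myl1, Tnnt1 and Tnnc1, overlapped WT or lay below it in Prx-cKO replicate 2. The muscle sum was 311 to 333 CPM in WT and 426 to 925 CPM in Prx-cKO, with Prx-cKO replicate 1 the highest.

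Markers of blood vessels, blood, ectoderm and nerve were summed in the same way. The 5 endothelial markers summed to 104 to 112 CPM in WT and 139 to 142 CPM in Prx-cKO, and the 5 myeloid markers to 16.3 to 21.5 and 32.9 to 36.1 CPM. The 5 surface ectoderm markers (565 to 717 and 699 to 767 CPM) and the 5 erythroid markers (2210 to 3290 and 2250 to 2990 CPM) overlapped between genotypes. The 4 Schwann cell markers summed to 77.5 to 82.5 CPM in WT and 93.2 to 109 CPM in Prx-cKO. No marker of these lists was at 0 in all libraries. The part of these markers' cell types in the values of the 9 genes was not tested.

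**Figure D4:**
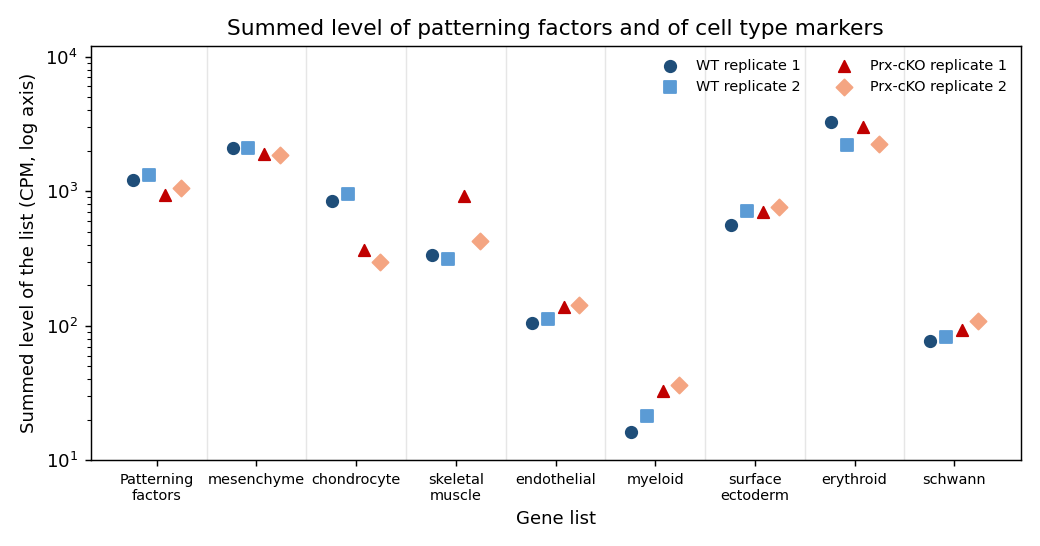
Summed level (CPM, log axis) of the 9 patterning factors and of each cell type marker list in the 4 forelimb libraries, 1 point per library. The sums of the 9 factors, of mesenchyme and of cartilage are lower in both Prx-cKO libraries than in both WT libraries. Most of the mesenchyme difference lies in Pdgfra. The largest part of the difference in the 9 factors lies in Prrx1, and 4 of the 9 had a log2 fold change above 0. The sums of skeletal muscle, endothelium, myeloid cells and Schwann cells are higher in both Prx-cKO libraries, and the ectoderm and erythroid sums overlap.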

How the data were processed

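Whole-number read counts per Ensembl gene, as deposited by the authors, were used for 4 forelimb and 8 culture libraries. FastQC 0.11.2, Trimmomatic 0.36, HISAT2 2.1.0, DESeq2 1.12.4 and the build GRCm38 are named in the submitters' processing notes, without roles; the counting tool, annotation and use of strand are not given in the sources used here. Symbols matched 99.6% of forelimb identifiers. Positions and exonic lengths (union of exons) are from GENCODE M21 on GRCm38.

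Forelimb counts were filtered with filterByExpr, scaled by TMM and fitted across all genes with edgeR 4.0.16 (R 4.3.3, quasi-likelihood, legacy = FALSE, two-sided, Benjamini-Hochberg, threshold 0.05). The fit was tested on simulated data, with planted differences larger than any fitted for the patterning factors. Each standard error was taken as the size of the fitted log2 fold change over the root of its F statistic. CPM use the scaled library sizes. The count test fits the unit, and depth is far above what these genes need, so the number of libraries limits precision. Other scalings, filters and the tools DESeq2 1.42.0 and limma-voom 3.58.1 were alternatives.

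The genes, the lists and the naming rule were chosen with earlier results of these data known. The rule named the 9 genes, library checks, up to 4 genes per related list with the smallest unadjusted p under 0.05, and for Lmx1b and Meis1, which had the smallest p in each direction, the 3 genes most alike with a mean of at least 5 CPM, leaving out Gm and Rik symbols. Transcripts that overlap the genes were named for that reason. Ptch1 and Gli1 were named beside Shh outside this rule.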

Additional observations from a re-analysis of the deposited data

Results flagged for a closer look

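Reads of some of the 9 genes were present in the 8 culture libraries, which were used in no comparison. These tables were normalised separately from the forelimb, so levels are only set side by side. More than 3 counts in every culture library were found for Prrx1, Prrx2, Shox2, Meis1 and Meis2. Prrx1 had a median of 24.3 CPM, from 9.43 to 27.3 CPM, which is 6.94% of its forelimb WT mean. Its lowest values were in LysM-cKO replicate 2, at 9.43 CPM in R40D3 and 13.9 CPM in R0D3. Shox2 had a median of 3.35 CPM, with its lowest value of 0.801 CPM in the same R40D3 library. Prrx2 had a median of 1.74 CPM, and its lowest values, 0.678 and 0.667 CPM, were in the same pair of libraries. Meis1 had a median of 2.09 CPM, from 1.22 to 2.67 CPM, and its low library was another one, LysM-cKO R40D3 replicate 1. Meis2 had a median of 0.832 CPM, and its lowest value, 0.246 CPM, was again in LysM-cKO R40D3 replicate 2. Hand2, Alx4, Lmx1b and Msx1 were at or under 3 counts in at least 5 of the 8 libraries, and Lmx1b had at most 1 count in any. The genotypes and culture conditions were not compared for these genes.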

How the results depend on the processing

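Over 13 alternatives each, Lmx1b (−1.20 to −0.86), Prrx1 (−1.06 to −0.63), Hand2 (−0.67 to −0.48), Shox2 (−0.31 to −0.14), Meis1 (0.38 to 0.93) and Meis2 (0.15 to 0.64) kept the sign of their log2 fold change. Adjusted p ranged from 0.00094 to 1 for Lmx1b, from 0.0263 to 1 for Prrx1 and from 0.0483 to 1 for Meis1. Msx1 turned to −0.05 with library size alone, to −0.06 without WT replicate 1 and to −0.07 without Prx-cKO replicate 2, and reached 0.18 without Prx-cKO replicate 1. Alx4 turned to −0.09 and −0.10 without the same libraries, and Prrx2 to 0.03 without Prx-cKO replicate 1. DESeq2 called 390 genes (1.95%) and 2 of the 9. With 1 library left out, edgeR called 0 to 603 genes and 0 to 3 of the 9, the count with an unadjusted p under 0.05 was 1 to 5, and the median of the 9 was −0.16 to 0.03; the lone library is then assumed to vary like the other group. With 1 library left out, the median of the other limb factors was −0.29 to 0.01 (the highest without WT replicate 1) and that of the positional signals −0.33 to 0.12 (the highest without Prx-cKO replicate 1). The cause of these shifts was not tested. With 1 library left out, the share of all genes tested with an unadjusted p under 0.05 also changed between fits. That share was highest without WT replicate 1, the fit that gave 5 of the 9. The counts of the 9 in these fits therefore cannot be read apart from the change over all genes. The median of all genes was −0.129 with library size alone, against −0.03. With replicate number as a block edgeR called 0 genes and 0 of the 9. In that fit 4 of the 9 again had an unadjusted p under 0.05, against 2707 of all genes tested (13.5%). Same-numbered libraries deviated together with r = 0.34 across 19653 genes, but nothing in the labels pairs them. The order per kilobase with the longest coding transcript was added after the data were seen.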
